A study of Mus musculus with 22 samples.

Results

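Usp24, Ttc4 and Pars2 are genes of 1 stretch of mouse chromosome 4. They were chosen because their RNA was lower in all 3 knockout genotypes of this study than in wild type, both as gene sums and in most of their transcripts. They are 3 of the 33641 gene symbols in the tables and 3 of the 13162 genes kept for testing, so all 3 passed the low-value filter of a mean of 1 TPM. Their levels against wild type are therefore given as a description, with no test. Tests were kept for differences between the knockouts and for the genes that lie around them. The choice did not compare the knockouts with each other. It did require each to be below wild type, so a gene with a knockout at or above wild type could not be chosen.

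The RNA came from LSK cells of mouse bone marrow, sorted as Kit and Sca-1 positive and lacking lineage markers, a fraction in which blood stem cells and early progenitors are found. The mice were of the C57BL/6 strain, and the deletion was started by injecting pI:pC, an RNA mimic used to switch on inducible Cre. LSK cells were taken 6 days later and not cultured. The genotypes were WT, Chd8-/- (here Chd8 KO), P53-/- (P53 KO) and Chd8-/-P53-/- (DKO), with 3 libraries each. The Cre driver, the floxed alleles and whether WT mice carried either are details not given in the sources used here. Nothing in the labels says that the libraries of a genotype came from separate animals, so p-values measure the spread between these libraries, which may be technical.

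USP24 is a ubiquitin-specific protease, an enzyme that removes ubiquitin from proteins and so changes their stability. TTC4 carries tetratricopeptide repeats and acts as a co-chaperone that binds HSP90. PARS2 is the prolyl-tRNA synthetase of mitochondria, which loads proline onto tRNA for the translation of mitochondrially encoded proteins. The proteins work in different pathways, and their genes are described together for their place on the chromosome and their shared course.

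In the RefSeq annotation of GRCm38.p6 the genes span 363.0 kb. Usp24 lies at chr4:106315980-106446613, Pars2 at chr4:106651069-106655282 and Ttc4 at chr4:106656806-106679002. Pars2 and Ttc4 are direct neighbours, 1523 bases apart. Usp24 is not adjacent to them, since other annotated genes lie between Usp24 and Pars2.

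The promoter windows below are shown because the genes are grouped by place and moved side by side, so the letters at their starts are what a reader would compare next. Each holds 250 bases before and 50 bases after a start site, from RefSeq on GRCm38.p6, written 5′ to 3′ on the strand of the gene. The first is chr4:106315963-106316262 on the plus strand and the second chr4:106678895-106679194 on the minus strand, which is 1 of 2 windows listed for Ttc4. Capitals mark the motifs GGGCGG (GC box), CCGGAAG (ETS type) and ATGGCGG (YY1 type), read on either strand.
Usp24: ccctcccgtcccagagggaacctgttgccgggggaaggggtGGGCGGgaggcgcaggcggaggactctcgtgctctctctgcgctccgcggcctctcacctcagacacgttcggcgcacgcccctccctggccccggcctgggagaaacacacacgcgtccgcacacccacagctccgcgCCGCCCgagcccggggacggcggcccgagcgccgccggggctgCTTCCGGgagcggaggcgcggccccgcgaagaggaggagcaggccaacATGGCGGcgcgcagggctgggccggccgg
Ttc4: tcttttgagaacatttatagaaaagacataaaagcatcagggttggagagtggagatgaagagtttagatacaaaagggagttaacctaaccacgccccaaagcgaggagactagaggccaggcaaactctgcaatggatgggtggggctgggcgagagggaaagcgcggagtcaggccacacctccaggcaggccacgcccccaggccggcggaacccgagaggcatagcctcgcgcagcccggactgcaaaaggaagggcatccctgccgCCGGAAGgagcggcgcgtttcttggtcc

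The Usp24 window was 76.7% G or C, at percentile 97.3 of the 32851 promoter windows in the table, whose median was 52.7%, and it held 39 CpG. The Ttc4 window was 58% G or C, at percentile 65.4, and held 17 CpG. CCGGAAG was the motif that both windows held, on the strand of the gene in Ttc4 and on the other strand in Usp24, and 8.86% of all windows hold it on either strand. GGGCGG stood in Usp24 on each strand (35.7% of all windows), ATGGCGG in Usp24 (4.05%) and TATAAA in Ttc4 on the other strand (13.6%). Neither window held CCAAT (37.4% of all), CACGTG (7.15%), TGACTCA (5.2%) or the p53 half-site motif (8.36%). These are matches of letters within 300 bases and say nothing of factor binding.

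Usp24 stood at no more than 56.5% of its WT mean in every knockout library. Its level was 37.7, 35.1 and 36.2 TPM in WT libraries 1 to 3. It was 15.3, 14.4 and 16.1 TPM in Chd8 KO, 10.9, 12 and 20.5 TPM in P53 KO, and 18, 17.3 and 18.1 TPM in DKO. The 9 knockout libraries all lay below the 3 WT libraries, with a wide gap between 20.5 and 35.1 TPM. Against a WT mean of 36.3 ± 1.29 TPM (SD, n = 3), the means were 15.3 ± 0.844 in Chd8 KO, 14.5 ± 5.24 in P53 KO and 17.8 ± 0.463 in DKO. These are 42.1%, 39.9% and 49% of the WT mean. The wide SD of P53 KO comes from library 3, which stood above the other two.

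Ttc4 stood at no more than 56.3% of its WT mean in every knockout library. It was at 44.3, 37.9 and 49 TPM in WT. The levels were 19.1, 18.2 and 23.5 TPM in Chd8 KO, 17.9, 24.6 and 19.4 TPM in P53 KO, and 19, 18.9 and 20.9 TPM in DKO. No knockout library reached the lowest WT library, and the 3 knockout genotypes overlapped each other. The means were 43.7 ± 5.55 TPM in WT, 20.3 ± 2.88 in Chd8 KO, 20.7 ± 3.51 in P53 KO and 19.6 ± 1.12 in DKO (SD, n = 3 each). As shares of the WT mean these were 46.3%, 47.2% and 44.8%.

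Pars2 was the lowest of the 3 genes in WT on the TPM scale, which is per length. It stood at 13.5, 11.6 and 12.4 TPM in WT. The knockout levels were 6.12, 6.76 and 7.92 TPM in Chd8 KO, 5.88, 6.2 and 5.72 TPM in P53 KO, and 6.88, 7.44 and 5.99 TPM in DKO. Again the 9 knockout libraries lay below the 3 WT libraries. The means were 12.5 ± 0.931 TPM in WT, 6.93 ± 0.911 in Chd8 KO, 5.93 ± 0.242 in P53 KO and 6.77 ± 0.731 in DKO (SD, n = 3 each), or 55.5%, 47.5% and 54.2% of WT.

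**Figure D1:**
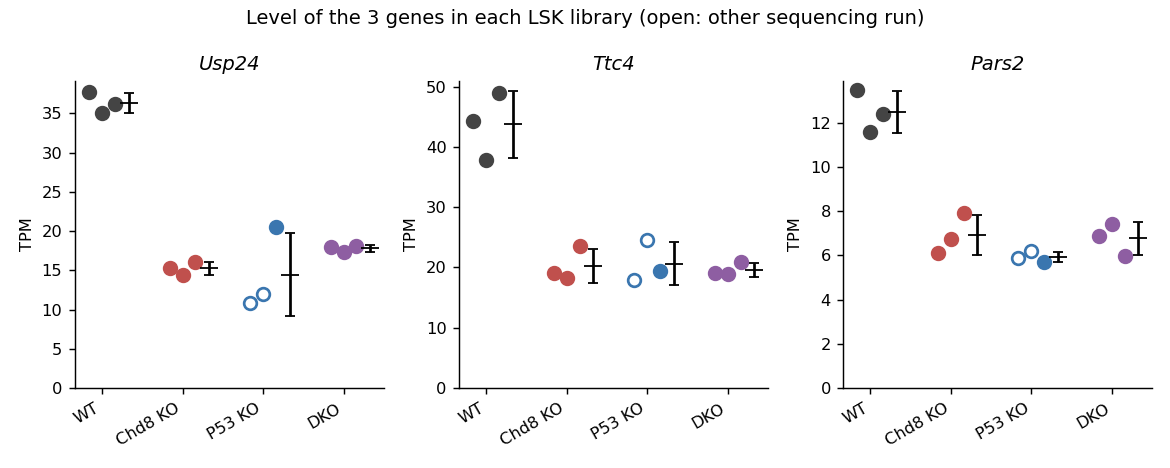
Level of each gene in TPM (linear axis from 0) in the 12 LSK libraries by genotype, with the mean and SD of the 3 libraries beside the points. Open points are P53 KO libraries 1 and 2, which carry another sequencing run number. In each panel the 9 knockout points lie below the 3 WT points.

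Across the 9 knockout libraries Usp24 ranged from 30.2% to 56.5% of its WT mean with a median of 44.3%, Ttc4 from 41% to 56.3% with a median of 43.7%, and Pars2 from 45.8% to 63.4% with a median of 49.6%. Averaged over the 3 genes, the WT libraries stood at 104%, 92.1% and 104%, and the knockout libraries at 39.4% to 53.9%. On the log2(TPM + 1) scale the fitted differences from WT for Chd8 KO, P53 KO and DKO in turn were -1.20, -1.32 and -0.99 for Usp24 (SE 0.18 each). They were -1.07, -1.05 and -1.11 for Ttc4 (SE 0.14) and -0.77, -0.96 and -0.80 for Pars2 (SE 0.12). The median of these 9 differences was -1.05, where the medians over all 13162 genes were 0.02, -0.03 and 0.09. The 3 comparisons share the WT libraries, so they do not support each other. In bulk RNA, fewer cells that express a gene and less of its RNA per cell cannot be told apart.

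The pattern was rare among the tested genes. All 9 knockout libraries lay below all 3 WT libraries for 48 of 13162 genes, 0.365%, and the rule put Usp24, Ttc4 and Pars2 among them. By limma at an adjusted p under 0.05, 7 genes (0.0532%) were called lower in each of the 3 knockouts. Usp24, Ttc4 and Pars2 are among them through the values they were chosen by, so their calls are no test. The others were Il2rb, Ighv1-12, Ighv1-85 and Igkv4-55. Il2rb codes for a chain of the interleukin-2 receptor, and the last 3 are antigen receptor variable segments, all 4 named after their values were seen. In single comparisons 6.98% of genes were called lower and 9.65% higher in Chd8 KO, 0.106% and 0.076% in P53 KO, and 1.77% and 3.46% in DKO. Those percentages include the genes chosen and are given as background. Chromosome 4 held 5 of the 48 among its 783 tested genes with a position. Usp24, Ttc4 and Pars2 are 3 of those 5 through the choice, so that count is a description too.

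The known differences between libraries were set beside these levels. Chd8 RNA was 48.2 to 73.9 TPM in WT, 26.2 to 35.6 in Chd8 KO, 53.1 to 69.4 in P53 KO and 34.8 to 44.4 in DKO. Trp53 RNA was 230 to 268 TPM in WT, 244 to 268 in Chd8 KO, and 16.1 to 24.3 in P53 KO and DKO, so the RNA of each targeted gene was lower in the genotypes named for it. Kit (180 to 295 TPM) and Ly6a, which codes for Sca-1 (85 to 356 TPM), were present in every library. Ly6a was 98.4 to 225 TPM in WT, 180 to 356 in Chd8 KO, 85 to 89.3 in P53 KO and 104 to 134 in DKO. All 9 lineage genes that the gate should lack were detected in at least 1 library, and their sum was 24.1 to 60.9 TPM in WT, 12.4 to 19 in Chd8 KO, 27.5 to 43 in P53 KO and 39.4 to 62.1 in DKO. Ly6g, a neutrophil gene of that list, was listed at 0 in every P53 KO and DKO library. The part of lineage cells, or of the Ly6a difference, in the levels of Usp24, Ttc4 and Pars2 was not tested.

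Y-linked RNA differed between libraries within WT and P53 KO, and between Chd8 KO and DKO as whole groups. Summed over 4 genes of the Y chromosome, WT 1 and 2 held 126 and 113 TPM but WT 3 held 1.16 TPM. The sum was 94.2 to 116 TPM in Chd8 KO, 0.738, 50.1 and 1.35 TPM in P53 KO and 1.8 to 2.03 TPM in DKO. WT 3 held Usp24, Ttc4 and Pars2 at 36.2, 49 and 12.4 TPM, within or above the range of WT 1 and 2. The part of the Y-linked difference in the levels of the 3 genes was not tested. Every Chd8 KO library was high and every DKO library low in Y-linked RNA. Between Chd8 KO and DKO, that difference and the genotype cannot be told apart.

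Between the knockouts, no difference of the 3 genes passed the test. Over 3 genes and 3 pairs of genotypes, limma called 0 of 9 differences at an adjusted p under 0.05, and 0 of 9 had an unadjusted p under 0.05. The lowest adjusted p was 0.235, and the largest difference was 0.33 on the log2 scale. As background, 29.7% of all tested genes were called between P53 KO and Chd8 KO, 10.5% between DKO and Chd8 KO and 14.9% between DKO and P53 KO. Those genes were not chosen for being below WT in every knockout, so their shares are no like comparison for the 3 genes.

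For Usp24 the differences (log2, 95% interval) were -0.12 (-0.52 to 0.27) for P53 KO minus Chd8 KO, 0.21 (-0.18 to 0.60) for DKO minus Chd8 KO and 0.33 (-0.06 to 0.72) for DKO minus P53 KO. For Ttc4 they were 0.02 (-0.29 to 0.33), -0.04 (-0.35 to 0.27) and -0.06 (-0.37 to 0.25) in the same order. For Pars2 they were -0.19 (-0.46 to 0.08), -0.03 (-0.30 to 0.24) and 0.16 (-0.11 to 0.43). The intervals leave room for a Usp24 level in DKO up to 1.65-fold that in P53 KO, and bound the Ttc4 level in DKO at 0.785-fold to 1.2-fold that in Chd8 KO. A difference that misses the threshold does not show that the genotypes are alike. In DKO minus Chd8 KO, genotype also cannot be told apart from the Y-linked difference given above.

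The Usp24 comparison rested on 1 P53 KO library. P53 KO libraries 1 and 2 carry another run number than the other 10, and mitochondrial transcripts took 2.12% and 1.9% of their TPM against 5.33% to 6.97% elsewhere. Usp24 was 10.9 and 12 TPM in those libraries and 20.5 TPM in library 3. Within the run of 10 libraries, where P53 KO is library 3 alone and is assumed to vary like the others, P53 KO minus Chd8 KO was 0.40 (limma adjusted p = 0.0308). Without library 3 it was -0.39 (adjusted p = 0.00741), and DKO minus P53 KO was 0.59 (adjusted p = 0.00139). The order of Usp24 among the knockouts is thus not set by these data, while all P53 KO libraries of either run were below WT. The run and the 2 P53 KO libraries in it cannot be told apart.

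**Figure D2:**
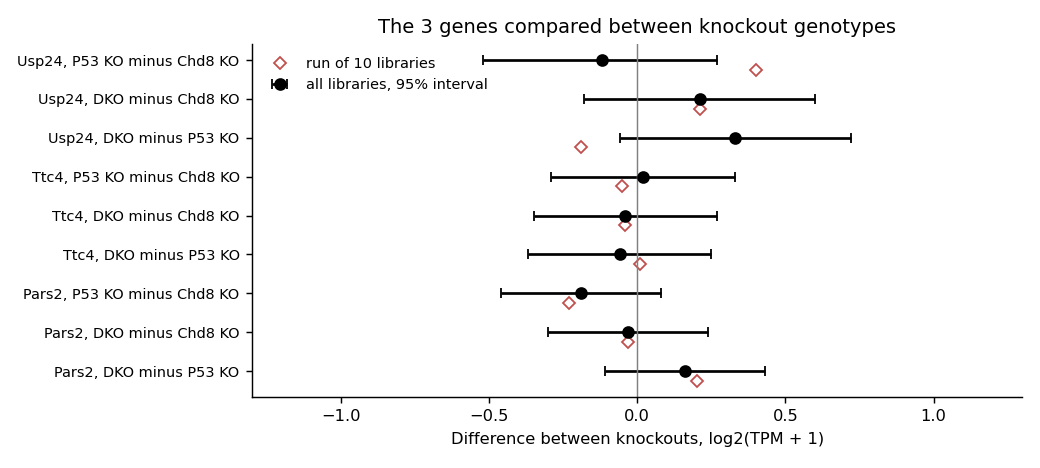
Difference between knockout genotypes for each gene on the log2(TPM + 1) axis, with filled points and bars for the estimate from all 12 libraries and its 95% interval, and open diamonds for the estimate within the run of 10 libraries. All 9 intervals cross 0, and the diamonds for Usp24 in the comparisons with P53 KO lie on the other side of 0 from the filled points.

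The proportion of the genes to each other varied between libraries. The Pars2 level was 0.253 to 0.306 times the Ttc4 level in WT and 0.32 to 0.372 times in Chd8 KO. It was 0.252 to 0.328 times in P53 KO and 0.287 to 0.393 times in DKO. The Usp24 level was 0.739 to 0.925 times the Ttc4 level in WT and 0.684 to 0.952 times in Chd8 KO and DKO. P53 KO libraries 1 and 2 stood below that range at 0.611 and 0.487, and library 3 above it at 1.06.

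The main transcript of each gene was lower in every knockout library than in WT, as the sum was. The tables hold 17 transcripts of the genes, 4 of Usp24, 9 of Ttc4 and 4 of Pars2, of which 12 had a lower mean in each knockout than in WT. For 5 transcripts no knockout library reached the WT range, and 1 transcript, of Ttc4, was listed at 0 in all libraries. The choice of the genes used their transcripts too, so these counts are a description. The share over all transcripts was not counted. ENSMUST00000094933.4 made up 88.6% to 97.3% of the Usp24 sum, and it stood at 34.5, 34 and 33.8 TPM in WT and at 10.6 to 19.3 TPM in the knockouts. ENSMUST00000026480.12 made up 66.1% to 88.9% of the Ttc4 sum. It was at 34 ± 0.596 TPM in WT, 15.7 ± 0.492 in Chd8 KO, 16.2 ± 1.21 in P53 KO and 15.2 ± 0.601 in DKO (SD, n = 3 each), or 42.7% to 51.6% of the WT mean over the 9 libraries. The wider spread of the Ttc4 sum therefore came from its minor transcripts, such as ENSMUST00000127133.1, which ran from 3.2 to 9.19 TPM within WT.

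Pars2 differed in its minor transcripts. Its main form, ENSMUST00000058905.7, was 8.62 ± 0.658 TPM in WT, 5.39 ± 0.653 in Chd8 KO, 5.1 ± 0.108 in P53 KO and 4.55 ± 0.486 in DKO (SD, n = 3 each). These knockout means were 62.6%, 59.2% and 52.9% of its WT mean, where the Pars2 sum stood at 55.5%, 47.5% and 54.2%. ENSMUST00000106782.1 was at 1.83, 1.46 and 2.34 TPM in WT. It was at 0.317, 0.394 and 0.521 TPM in Chd8 KO, 0.257, 0.232 and 0 TPM in P53 KO, and 1.4, 1.08 and 0.332 TPM in DKO. That form took 15% of the Pars2 sum in WT, 5.86% in Chd8 KO, 2.7% in P53 KO and 13.4% in DKO on average, with an SD of 7.42 percentage points in DKO. At these levels the split between transcripts depends on how shared reads were assigned, a step the sources used here do not describe.

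A few transcripts did not follow the gene sums. ENSMUST00000165709.7 of Usp24 had a mean of 0.379 TPM in WT and 0.456, 0.748 and 0.501 TPM in Chd8 KO, P53 KO and DKO, and ranged from near 0 to 1.36 TPM over the knockout libraries. ENSMUST00000132650.1 of Ttc4 was listed at 0 in WT 2 and at 3.72 TPM in WT 3, so its groups overlapped.

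**Figure D3:**
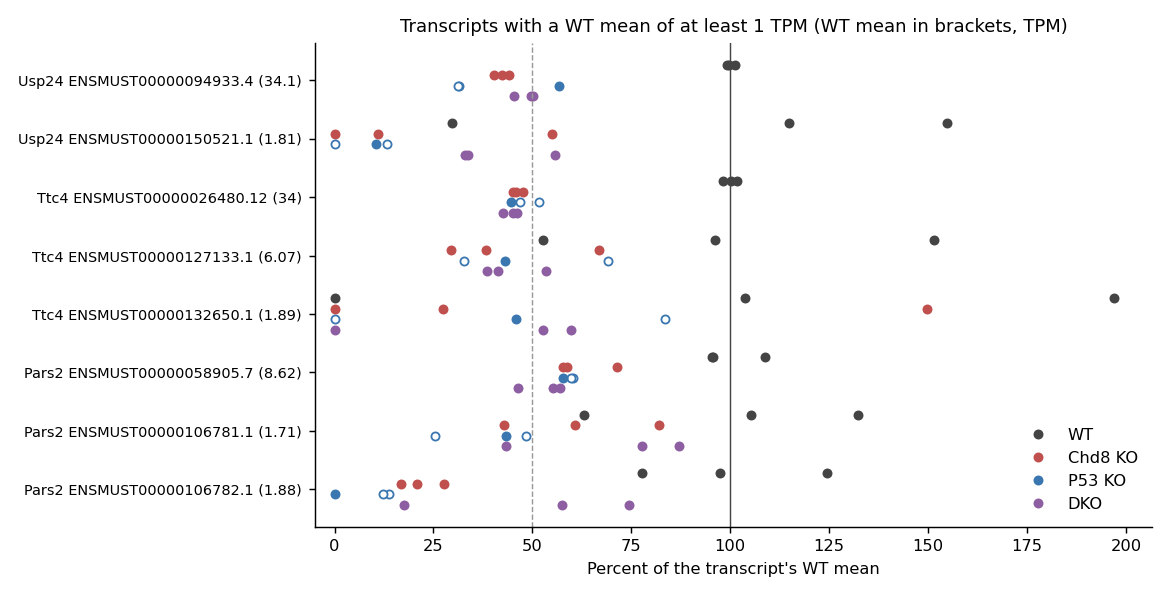
Transcripts of the 3 genes with a WT mean of at least 1 TPM, each library as a percentage of the transcript's own WT mean (linear axis), coloured by genotype, with open points for P53 KO libraries 1 and 2, a solid line at the WT mean and a dashed line at 50%. The main transcript of each gene shows knockout points between 31.2% and 71.3%, apart from the WT points, while the minor transcripts scatter within every genotype.

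Among the neighbours, Acot11 fell in DKO and Ssbp3 in Chd8 KO. Of 57 other genes within 2 Mb, 25 passed the filter and were tested. In Chd8 KO, limma called 2 lower, Ssbp3 among them, and 4 higher (Lrp8, Magoh, Echdc2 and Prpf38a), 6 of 25 where 16.6% of all genes were called. In DKO it called 2 lower, Acot11 among them, and 0 higher where 5.23% of all genes were called. In P53 KO it called 0 of 25 (5 at an unadjusted p under 0.05) where 0.182% of all genes were called. The median differences of the 25 were 0.12, -0.07 and -0.04 on the log2 scale in Chd8 KO, P53 KO and DKO, against 0.02, -0.03 and 0.09 over all genes.

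Acot11, at chr4:106744555-106805007, is the next tested gene past Ttc4, 65.6 kb away, and codes for an acyl-CoA thioesterase. It lay just outside the pattern, since 8 of its 9 knockout libraries were below WT. Its level was 11.3, 10.3 and 11.1 TPM in WT, 7.34, 8.68 and 11 TPM in Chd8 KO, 7.1, 6.76 and 4.8 TPM in P53 KO and 6.09, 5.62 and 6.37 TPM in DKO. Chd8 KO library 3 was the one within the WT range. Acot11 fell by 0.76 ± 0.16 (log2, SE) in DKO (limma adjusted p = 0.0234). The differences in Chd8 KO (-0.26, adjusted p = 0.303) and P53 KO (-0.73, adjusted p = 0.185) missed the threshold, and the DKO call was lost in 6 of 25 alternatives, among them leaving out WT 1, WT 2 or any one DKO library (highest adjusted p 0.0875).

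Ssbp3, at chr4:106911470-107049694, codes for a DNA-binding partner of LIM-domain complexes and starts 232 kb past Ttc4. Its means were 76.8%, 79.1% and 92.8% of WT in Chd8 KO, P53 KO and DKO. It fell by 0.37 ± 0.11 (log2, SE) in Chd8 KO (limma adjusted p = 0.0363), a call lost in 11 of 25 alternatives. For 0 of the 21 tested genes beyond Ssbp3 did all 9 knockout libraries lie below WT, a count near the background, since 0.365% of all genes did. These 21 genes had knockout means of 75.7% to 332% of WT with a median of 101%. Among them in Chd8 KO rose Lrp8, a lipoprotein receptor, by 0.60 ± 0.15, Magoh, of the exon junction complex, by 0.28 ± 0.08, Echdc2 by 1.41 ± 0.29 and the splicing factor gene Prpf38a by 0.39 ± 0.06 (log2, SE; limma adjusted p = 0.024, 0.0402, 0.00808 and 0.00162). The Magoh call was lost in 11 of 25 alternatives and the Lrp8 call in 4.

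On the other side, 11 genes before Usp24 within 2 Mb were below the filter. Among them Prkaa2 had all 9 knockout libraries below WT, at 0.375 to 0.808 TPM against 0.952 to 1.31 TPM. It was too low to be tested, and the rest of the 11 did not show that pattern. The nearest tested gene was Plpp3, 1083 kb away, at 1.63 ± 0.227 TPM in WT, which was not called in any knockout.

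**Figure D4:**
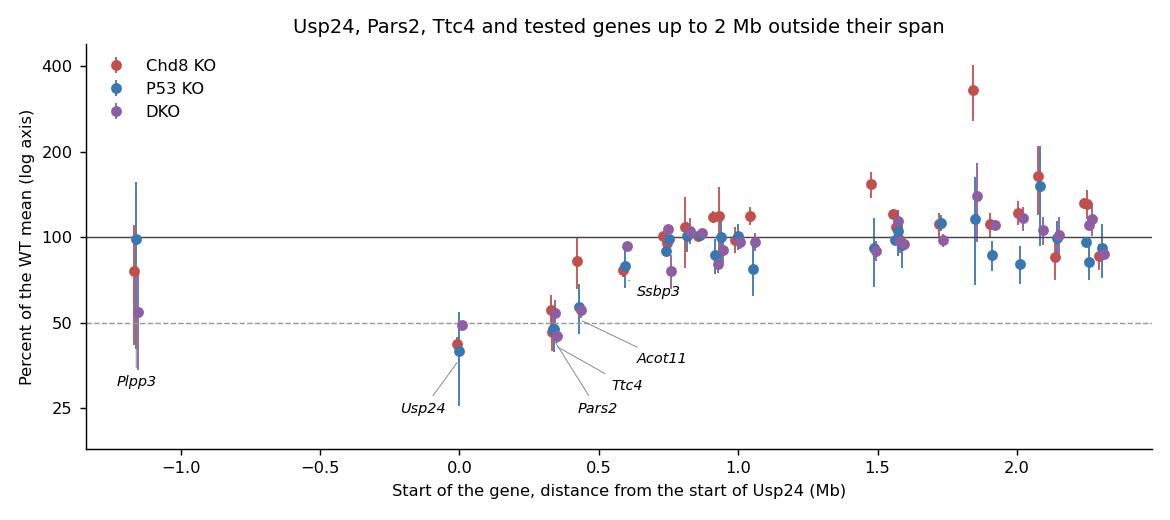
Mean of each knockout genotype as a percentage of the WT mean (log axis), with bars for the SD of its 3 libraries, for the 3 genes and tested genes up to 2 Mb outside their span, placed by distance from the start of Usp24 in Mb. The solid line is the WT mean and the dashed line 50% of it. Usp24, Pars2 and Ttc4 lie between 39.9% and 55.5%, Acot11 between 55.4% and 82.9%, and genes further right scatter around 100%.

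**Figure D5:**
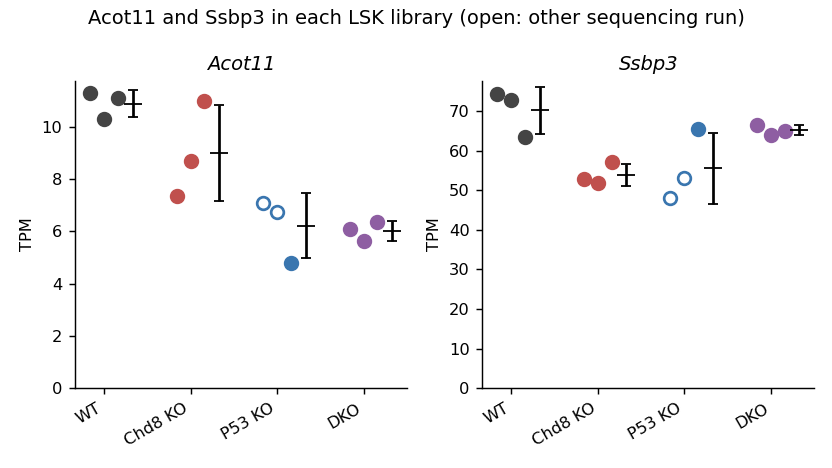
Level in TPM (linear axis from 0) of Acot11 and Ssbp3 in each library, with the mean and SD of each genotype beside the points and open points for P53 KO libraries 1 and 2. Acot11 shows all knockout points but 1 of Chd8 KO below WT, and the groups of Ssbp3 overlap.

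In each of 3 lists, of other ubiquitin-specific proteases (42 of 48 tested), other HSP90 chaperones and co-chaperones (28 of 28) and other genes of mitochondrial aminoacyl-tRNA synthesis (21 of 21), 0 genes had all 9 knockout libraries below WT, where 0.365% of all genes did. In P53 KO, where 0.182% of all genes were called, limma called 0 genes of the 3 lists, with 9, 7 and 2 genes at an unadjusted p under 0.05, so a count of 0 is near the background.

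Among the 42 ubiquitin-specific proteases 2 rose and 2 fell in Chd8 KO, where 16.6% of all genes were called, and 1 rose and 1 fell in DKO, where 5.23% were. The DKO share is near the background. The list medians were 0.04 and 0.11 on the log2 scale, against 0.02 and 0.09 over all genes. Usp11 was at 43.1, 32.1 and 46.6 TPM in WT, 7.58 to 10.9 TPM in Chd8 KO, 39.8 to 47.6 TPM in P53 KO and 13.3 to 17.3 TPM in DKO. The P53 KO libraries of Usp11 overlapped WT (0.10, limma adjusted p = 0.83), where those of Usp24 did not. Usp11 fell by 2.04 ± 0.16 (log2, SE) in Chd8 KO (limma adjusted p = 3.72e-05) and by 1.38 ± 0.16 in DKO (adjusted p = 0.00119). Usp3, a deubiquitinase of histone H2A, fell by 0.34 ± 0.09 in Chd8 KO (adjusted p = 0.0293), and Usp2 rose by 0.79 ± 0.19 in DKO (adjusted p = 0.0424). Those calls were lost in 6 of 25 and in 15 of 24 alternatives. Usp14, a deubiquitinase bound to the proteasome, was not called in any knockout, with the lowest adjusted p in P53 KO (-0.67, adjusted p = 0.217).

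Among the 28 HSP90 chaperones and co-chaperones, 8 rose and 0 fell in Chd8 KO, where 9.65% of all genes were called higher and 6.98% lower. With 1 library left out, the number of genes of this list called in Chd8 KO ran from 4 to 12. In DKO 1 rose and 1 fell, where 5.23% of all genes were called, a share near the background. The list medians were 0.23 and 0.04, against 0.02 and 0.09 over all genes. Ahsa1, which stimulates the ATPase of HSP90, rose by 0.53 ± 0.09 and Pih1d1, of the R2TP co-chaperone complex, by 0.43 ± 0.08 in Chd8 KO (log2, SE; limma adjusted p = 0.00328 and 0.00444). In DKO Pih1d1 rose by 0.37 ± 0.08 (adjusted p = 0.0196) and Hsp90b1, the HSP90 of the endoplasmic reticulum, fell by 0.54 ± 0.11 (adjusted p = 0.0218). These DKO calls were lost in 5 and 4 of 25 alternatives, with adjusted p up to 0.12 and 0.0933. Ttc4 stood at 46.3% of WT in Chd8 KO while Ahsa1 and Pih1d1 stood at 144% and 135%.

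Among the 21 genes that charge mitochondrial tRNA, 2 rose and 1 fell in Chd8 KO, where 16.6% of all genes were called, a share near the background. In DKO 1 rose and 1 fell, where 5.23% were called. The list medians were 0.20 and 0.10, against 0.02 and 0.09 over all genes. Ears2, the glutamyl-tRNA synthetase gene, rose by 0.83 ± 0.10 in Chd8 KO (limma adjusted p = 0.000536) and by 0.75 ± 0.10 in DKO (adjusted p = 0.00258). Gatb, of the amidotransferase that makes glutaminyl-tRNA, rose by 0.64 ± 0.12 in Chd8 KO (adjusted p = 0.00519). Sars2, the seryl-tRNA synthetase gene, fell by 0.33 ± 0.09 in Chd8 KO (adjusted p = 0.0295) and by 0.46 ± 0.09 in DKO (adjusted p = 0.0157), and Yars2 was not called (DKO 0.36, adjusted p = 0.0595). The Sars2 calls were lost in 7 and 4 of 25 alternatives. Calls over these lists changed with the libraries used, as given under the dependence on processing.

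The genes with the most similar course over the 12 libraries were ranked as a description. Likeness was the root mean square difference, in log2 units after subtracting the WT mean, between a gene and the average of the 3 genes, over 10577 genes that averaged 5 TPM or more. The median over those genes was 0.94. Usp24 was at 0.202, Ttc4 at 0.136 and Pars2 at 0.191, low values that are largely fixed, since the 3 genes make up the average. Among the 6 other genes most like them were Hist1h2bk (0.391) and Hist1h4d (0.461), histone genes whose near-identical copies make them uncertain, and Trdmt1 (0.469), which codes for an RNA methyltransferase. The neighbour Acot11 (0.470) was there too, with Atpaf1 (0.475), an assembly factor gene of mitochondrial ATP synthase further along chromosome 4. Trdmt1 was at 12.4 to 13 TPM in WT and 6.53 to 10.5 TPM in the knockouts, and Atpaf1 at 22.8 to 25.9 TPM in WT and 13.1 to 28.2 TPM in the knockouts, where P53 KO library 3 exceeded WT.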

How the data were processed

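Expression was measured by RNA-seq in 12 libraries, 4 genotypes with 3 libraries each. The authors deposited 1 table of TPM, a length-normalised share of transcripts, per library, with 105129 transcripts. The tool that made the TPM and its handling of strand and shared reads are not given in the sources used here. The submitters' processing notes list aligners (STAR 2.6.1e, Bowtie2 2.3.4.1), featureCounts 1.6.2 and other tools on GRCm38 (mm10), with no role given to each. TPM sums to 1000000 in each library, so depth is unknown and no counting error can be given. Run numbers in the file names put P53 KO libraries 1 and 2 apart from the other 10.

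From the deposited TPM, transcripts were summed per gene symbol. Genes that averaged 1 TPM or more were fitted on log2(TPM + 1) by limma, version 3.58.1 under R 4.3.3 (1 mean per genotype, 8 residual degrees of freedom, eBayes with trend), two-sided, with Benjamini-Hochberg adjustment over all 13162 genes and a threshold of 0.05. A fold change on this scale understates the change of low genes. The fit was tested on simulated data. Positions came from RefSeq GRCm38.p6, matched for 27768 symbols by name and 773 by synonym, and 96.4% of tested genes were placed. Tables used Python 3.11.15 with pandas 2.3.3, and plots matplotlib 3.10.9.

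The 3 genes, the lists and the tests were chosen with earlier results of these data known. Named besides them were window genes called in any knockout, the nearest tested genes, up to 4 genes of each family list with the smallest p, the 6 genes of most similar course, and the checks of genotype and gate. Some genes that met this rule are not reported here. Alternatives changed the pseudocount (0.1, 0.5), the filter (none, 5 TPM), the scaling, the groups fitted, the variance model, library weights, the replicate number, the run, the window (1 or 5 Mb), the transcript used and each library in turn. The 4 ATAC and 6 CUT&RUN samples were not analysed here.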

Additional observations from a re-analysis of the deposited data

How the results depend on the processing

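Under median-of-ratios scaling, quantile normalization and the most abundant transcript, the knockout libraries of Usp24, Ttc4 and Pars2 again lay below WT, which the choice of the genes largely fixes. The median of their 9 differences from WT, -1.05 on the log2 scale, was between -1.15 and -0.99 with 1 library left out. The Usp24 difference in P53 KO ran from -1.58 to -0.79. With the most abundant transcript the Pars2 difference was -0.59 in Chd8 KO and -0.65 in P53 KO, against -0.77 and -0.96 for the sum.

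The count of 0 of 9 differences between knockouts became 1 with library weights, 1 with the run as a covariate, 1 within the run of 10 libraries, and 0 to 2 with 1 library left out. The sign turned in the following cases, in log2 units. With the run as a covariate and within the run of 10, Usp24 P53 KO minus Chd8 KO was 0.40 and 0.40, Usp24 DKO minus P53 KO -0.19 and -0.19, Ttc4 P53 KO minus Chd8 KO -0.05 and -0.05, and Ttc4 DKO minus P53 KO 0.01 and 0.01. Pars2 DKO minus Chd8 KO was 0.04 with library weights, and Pars2 DKO minus P53 KO -0.14 with the most abundant transcript. With 1 library left out, ranges that cross 0 were -0.39 to 0.04 for Usp24 P53 KO minus Chd8 KO, -0.10 to 0.13 for Ttc4 P53 KO minus Chd8 KO, -0.11 to 0.07 for Ttc4 DKO minus Chd8 KO, -0.15 to 0.06 for Ttc4 DKO minus P53 KO and -0.10 to 0.06 for Pars2 DKO minus Chd8 KO.

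Neighbours called in Chd8 KO went from 6 to 2 in a window of 1 Mb, which holds 11 tested genes, and to 2 to 6 with 1 library left out. In P53 KO they were 0 to 4 and in DKO 1 to 2. Family genes called in Chd8 KO went from 15 to 28 with weights, 25 with the run as a covariate and 24 in the run of 10, and to 7 to 25 with 1 library left out. In P53 KO they were 0 to 13. In DKO 6 became 3 in a fit of the groups compared, 12 with weights and 10 in the run of 10, and 2 to 9 with 1 library left out. The highest P53 KO counts came without P53 KO library 3.

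Genes with no overlap in all 9 knockout libraries went from 48 to 99 with no filter, 86 under median-of-ratios scaling and 220 in the run of 10, and to 52 to 247 with 1 library left out, the highest without WT 2. Genes called lower in each knockout went from 7 to 2 in fits of the groups compared and 3 with the run as a covariate, and to 3 to 25 with 1 library left out, the highest without P53 KO library 3. The no-overlap count asks less of a gene when libraries are left out, and with no filter more genes enter it. Part of the rise in that count is therefore fixed by its definition. What else lay behind these shifts was not tested.

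Same-numbered libraries did not deviate together (18 pairs, r from -0.25 to 0.12, 1 over 0.1), so the numbers were not taken as pairs. With the replicate number as a block, neighbours called in DKO went from 2 to 1, since Acot11 had a limma adjusted p of 0.0537, and the calls of Ssbp3 and Sars2 in Chd8 KO and of Usp2 in DKO were lost as well. The limits are 3 libraries per genotype, P53 KO split over 2 runs, unknown depth and an unstated tool for the TPM. A further limit is Y-linked RNA that differed between Chd8 KO and DKO as whole groups.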
